A study of Mus musculus with 16 samples.

Results

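The urea cycle and nitrogen disposal enzymes were followed in liver through 10 genes: Nags, Cps1, Otc, Slc25a15, Ass1, Asl and Arg1 of the cycle itself, and Glud1, Got1 and Gpt, which move amino groups towards it. They were picked by gene symbol, with earlier results of these data known. Each symbol matched 1 of the 15544 rows of the liver table, and all 10 were among the 12704 genes whose values were high enough to test. Bulk liver RNA was sequenced from 16 female mice aged 27 weeks, with 1 library per mouse. All mice carried floxed alleles of Esr1, the gene of oestrogen receptor alpha. Control mice (Esr1fl/fl) kept the receptor, and mutant mice (Esr1Nkx2.1-cre) carried in addition a Cre recombinase under Nkx2.1, which removes it from cells of the medial basal hypothalamus. Nkx2.1 is also known to be active in the thyroid and the lung, and no deletion in liver is described. Mice of each genotype stayed on chow or received a high-fat diet (HFD) for 17 weeks from 10 weeks of age, which gave 4 groups of 4 mice. The comparisons asked whether a hypothalamic deletion, or a long fatty diet, was accompanied by a change in liver transcripts.

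The urea cycle turns ammonia, which is toxic to the brain, into urea for excretion. Its first steps run in the mitochondria of hepatocytes and the rest in the cytosol, and the complete cycle is a property of liver. The pathway is most active in hepatocytes around the portal vein, and its enzymes are known to respond to dietary protein, glucagon and glucocorticoids.

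No difference of the 10 genes between genotypes or diets passed the test. With limma, 0 of 10 passed an adjusted p of 0.05 for mutant against control on chow, where 0.0236% of all tested genes passed, and 0 of 10 passed for mutant against control on HFD, where 0.0157% passed. Between diets, among controls as among mutants, and for the interaction of genotype with diet, 0 of 10 passed, beside 0% of all tested genes. At an unadjusted p of 0.05, the counts were also 0 of 10 in all 5 comparisons, while 6.08% of tested genes reached it between genotypes on chow and 8.60% between genotypes on HFD, and the share was 12.9% between diets among controls, 6.86% between diets among mutants and 4.21% for the interaction. No member separated the 4 mice of one group from the 4 of the other in any of the 4 pairwise comparisons, where 3.05%, 2.69%, 6.36% and 3.53% of tested genes did so in the same order. The 95% intervals of the pairwise differences ran no lower than -0.98 and no higher than 0.89 on the log2(value + 1) scale used for all differences here, so a change of up to about that size in single genes lay within the intervals.

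Several libraries stood apart from the rest of their group. The liver identity was clear, since hepatocyte markers such as Alb and Hnf4a were in the table and the sum of 5 hepatocyte markers lay between 54058 and 94066. The 18 acute-phase genes took 12.4% of the summed values in mouse 2 of the mutant chow group, against 1.26% to 3.05% in the other 15 libraries. The libraries also fell into lower and higher series of the numbers in their titles, whose meaning the labels do not give. On HFD, the lower series held 3 controls and mutant 1, and the higher series held 3 mutants and control 4. A difference between the series cannot be told apart from an exchange of the labels of control HFD 4 and mutant HFD 1. Every value that draws on HFD livers carries this limit. It thus covers genotype on HFD, HFD against chow within either genotype, and the interaction. Within HFD, 25.2% of all tested genes differed between these series (limma, adjusted p under 0.05). On chow, 0% differed between the lower series, with 2 controls and 1 mutant, and the higher series, with 2 controls and 3 mutants. The title numbers of the chow series lay close together and those of the HFD series far apart, so the splits are not alike. The lower HFD numbers also lay far from all chow numbers. For the 3 control HFD livers of the lower series, diet and title numbers therefore changed together. Liver Esr1 had means of 11.7 ± 3.45 in control chow, 13.6 ± 5.54 in mutant chow, 7.21 ± 0.825 in control HFD and 17.7 ± 7.60 in mutant HFD livers (SD, n = 4), and these liver values do not check a deletion made in the brain. In bulk tissue, fewer cells of a type and less RNA per cell cannot be told apart.

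The members covered a wide range of levels, given here as TPM (a length-adjusted share of the library, so that genes can be compared) after adjustment by library size factors. Ass1 was the highest with a mean of 2840 over the 16 livers, the 38th highest of all tested genes. Arg1 (1080), Cps1 (916), Glud1 (659) and Asl (578) followed, then Gpt (313), Otc (296), Got1 (209), Slc25a15 (128) and Nags (52.5). The steps from Ass1 to Arg1, from Asl to Gpt, from Got1 to Slc25a15 and from Slc25a15 to Nags held in 16 of 16 livers. Other neighbours were not separated in every mouse. Arg1 exceeded Cps1 in 12 of 16 livers, Cps1 exceeded Glud1 in 13, Glud1 exceeded Asl in 11, and Otc exceeded Got1 in 12. Gpt and Otc could not be ordered, since Gpt was the higher in 8 of 16.

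**Figure D1:**
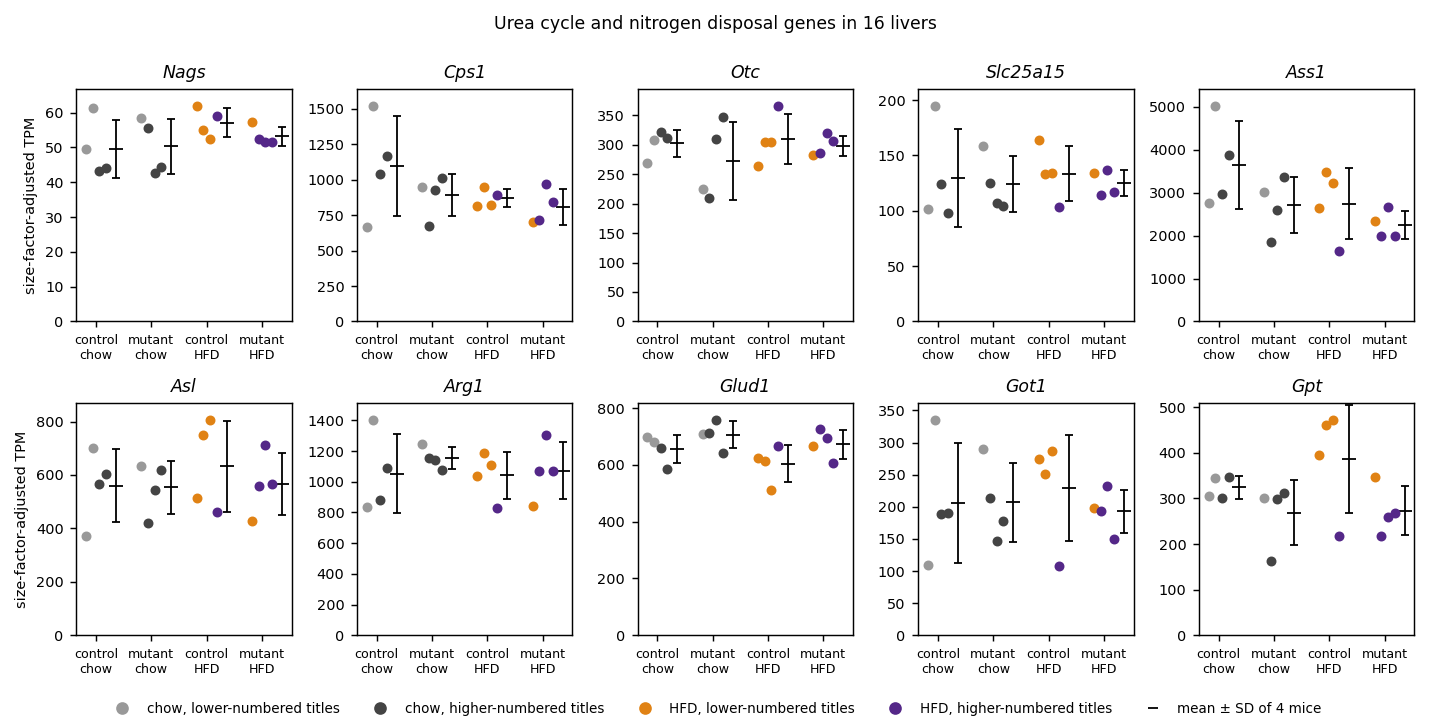
Size-factor-adjusted TPM of the 10 genes (y axes, starting at 0) in each of the 4 groups (x axes). Each point is 1 mouse, coloured by the number series of its library title, and the bar beside it is the mean ± SD of 4 mice. The groups overlap for all 10 genes, and the 4 orange and 4 purple HFD points are apart for Gpt.

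Over all 16 livers the highest Got1 value was 3.11 times the lowest, and that of Ass1 and Gpt 3.07 and 2.90 times. Nags and Glud1 had the narrowest ranges, at 1.45 and 1.48 times. The within-group SD of Glud1, 0.12 on the log2 scale, stood at percentile 5.05 of all tested genes, and that of Got1, 0.53, at percentile 90.8. The median SD of the members, 0.31, was close to the 0.27 of the 1000 highest genes. Mouse 2 of the control chow group held the highest value of 5 members (Ass1, Arg1, Cps1, Got1 and Slc25a15), and mouse 4 of the control HFD group the lowest of 3 (Ass1, Arg1 and Got1). Together the 10 genes made up 0.863% ± 0.213 of the summed values in control chow, 0.707% ± 0.133 in mutant chow, 0.660% ± 0.0719 in control HFD and 0.634% ± 0.0633 in mutant HFD livers (SD, n = 4). These shares overlapped, with mutant chow mouse 2, the liver with the high acute-phase share, at the lowest value of 0.527%.

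**Figure D2:**
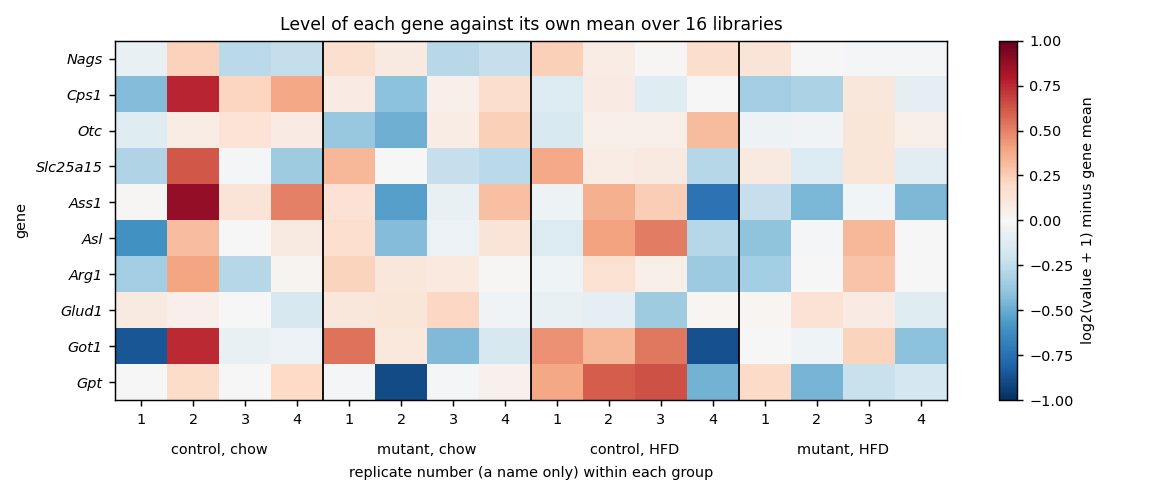
Each cell is the log2(value + 1) of a gene (rows) in 1 liver (columns, by group and replicate) minus the mean of that gene over the 16 livers, red above and blue below the mean. Mouse 2 of control chow is above the mean for all 10 genes, and Glud1 and Nags stay palest.

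Nags, which makes the N-acetylglutamate that Cps1 requires, is encoded on chromosome 11 (102145513 to 102149477, plus strand, GRCm38). It was at 49.5 ± 8.41 in control chow, 50.3 ± 7.87 in mutant chow, 57.1 ± 4.12 in control HFD and 53.2 ± 2.75 in mutant HFD livers (SD, n = 4). Its largest difference was 0.21 between HFD and chow in controls, with a 95% interval of -0.06 to 0.48 (an unadjusted p of 0.114 and an adjusted p of 0.489 with limma). Without control chow mouse 2, this was 0.32 with an unadjusted p of 0.0195 and an adjusted p of 0.458. An antisense transcript, Gm11586, shares 445 bases with Nags, and whether the counting used strand is not given in the sources used here, so reads of the pair may not have been separable.

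Cps1, the mitochondrial enzyme that joins ammonia and bicarbonate into carbamoyl phosphate and sets the pace of the cycle, lies on chromosome 1 (67123026 to 67231259, plus strand). In control chow livers it was at 664, 1518, 1038 and 1169, and in mutant chow livers at 947, 674, 927 and 1012. On HFD, controls were at 813, 950, 821 and 894 and mutants at 703, 718, 970 and 842. Control chow held both the lowest and the highest liver of all 16, and every other group lay inside that range. The difference of mutants from controls was -0.26 on chow (95% interval -0.70 to 0.18, limma adjusted p = 0.949) and -0.12 on HFD (-0.56 to 0.33, adjusted p = 0.864). HFD differed from chow by -0.28 in controls (-0.72 to 0.17, adjusted p = 0.581) and by -0.13 in mutants (adjusted p = 0.954). Both comparisons with control chow depended on single mice. Without control chow mouse 1, the chow difference between genotypes was -0.48 (unadjusted p = 0.0158, adjusted p = 0.999) and the diet difference in controls -0.50 (unadjusted p = 0.0127, adjusted p = 0.354). Without control chow mouse 2 they were -0.082 and -0.10, and without mutant chow mouse 2 the chow difference between genotypes was -0.13.

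Otc, which makes citrulline from ornithine and carbamoyl phosphate, lies on chromosome X (10252305 to 10321024, plus strand). Its means lay between 272 ± 66.1 in mutant chow and 310 ± 41.6 in control HFD livers (SD, n = 4). The lowest value of all, 209, was that of mutant chow mouse 2, and the chow difference between genotypes was -0.18 (95% interval -0.50 to 0.14). It was -0.064 without that mouse and -0.31 without mutant chow mouse 4, the ends of the range over the mice left out in turn. Slc25a15 encodes the carrier that exchanges ornithine and citrulline across the inner mitochondrial membrane and lies on chromosome 8 (22375551 to 22398597, minus strand). It was at 102, 194, 124 and 98.0 in control chow, at 159, 125, 107 and 104 in mutant chow, at 164, 133, 134 and 103 in control HFD and at 134, 114, 137 and 117 in mutant HFD livers. Its 4 group means, 130, 124, 133 and 125, were nearly level, and its 4 pairwise differences were between -0.074 and 0.079, with 95% intervals within -0.50 and 0.51.

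Ass1, which condenses citrulline with aspartate and so brings in the second nitrogen of urea, is encoded on chromosome 2 (31470207 to 31520672, plus strand). In chow livers it was at 2756, 5014, 2975 and 3870 in controls and at 3021, 1861, 2594 and 3365 in mutants. In HFD livers it was at 2636, 3489, 3235 and 1635 in controls and at 2331, 1989, 2671 and 1996 in mutants. Control chow had the highest group mean, 3654 ± 1027, and mutant HFD the lowest, 2247 ± 324.8 (SD, n = 4). The difference of mutants from controls was -0.42 on chow (95% interval -0.97 to 0.12, limma adjusted p = 0.877) and -0.24 on HFD (-0.79 to 0.30, adjusted p = 0.746), and that of HFD from chow was -0.43 in controls (-0.97 to 0.12, adjusted p = 0.491) and -0.25 in mutants (-0.79 to 0.30, adjusted p = 0.904). All 4 differences were negative, which follows from control chow being the highest and mutant HFD the lowest group, and 0 of 4 passed the test. Without control chow mouse 2, the differences on chow and in controls were both -0.26, and leaving out each mouse in turn gave -0.55 to -0.25 on chow and -0.56 to -0.20 in controls. The genotype difference on HFD was -0.47 without control HFD mouse 4 (adjusted p = 0.226), -0.48 with library weights (unadjusted p of 0.0236, adjusted p = 0.0678) and 0.0077 once the number series entered the fit. With libraries rescaled to the same total, the diet difference in controls was -0.60 (unadjusted p of 0.0260, adjusted p = 0.236). A processed pseudogene, Gm5424, matches the Ass1 transcript over 1240 bases at 99.5% identity, but it took at most 0.0249% of the summed Ass1 and Gm5424 value in any liver, and the 4 differences of the sum were those of Ass1.

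Asl, which splits argininosuccinate into arginine and fumarate, lies on chromosome 5 (130011258 to 130029247, minus strand). Its means ran from 554 ± 98.3 in mutant chow to 633 ± 170 in control HFD livers (SD, n = 4), and single livers from 372 to 805. The largest of its 4 differences was 0.17 for diet in controls (95% interval -0.31 to 0.66, limma adjusted p = 0.771). Arg1, the arginase that releases urea and returns ornithine, lies on chromosome 10 (24915221 to 24927484, minus strand). Its 4 group means were among the closest of the members, at 1052 ± 258, 1155 ± 68.9, 1041 ± 152 and 1073 ± 187 for control chow, mutant chow, control HFD and mutant HFD livers (SD, n = 4). The genotype difference was 0.16 on chow (95% interval -0.21 to 0.53) and 0.038 on HFD (-0.33 to 0.41), and the diet difference was 0.0038 in controls and -0.12 in mutants, with adjusted p-values from 0.946 to 0.995.

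Glud1, the mitochondrial glutamate dehydrogenase that releases ammonia from glutamate, is encoded on chromosome 14 (34310727 to 34345265, plus strand). It was at 656 ± 49.0 in control chow, 705 ± 47.7 in mutant chow, 604 ± 65.1 in control HFD and 672 ± 51.3 in mutant HFD livers (SD, n = 4). Mutants were above controls by 0.11 on chow (95% interval -0.13 to 0.34) and 0.16 on HFD (-0.077 to 0.39, limma adjusted p = 0.651). These were the narrowest intervals among the members. With library weights, the genotype difference on HFD was 0.21 (limma, unadjusted p of 0.0414 and adjusted p = 0.102). HFD differed from chow by -0.12 in controls and -0.069 in mutants. With libraries rescaled to the same total, the difference in controls was -0.30 (limma, unadjusted p of 0.0352 and adjusted p = 0.262), where the median of all genes was -0.16. A processed pseudogene, Glud-ps, matches the Glud1 transcript over 656 bases and Gm43444 over 287 bases, both at 97.6% identity. Neither had a row, so their part in the Glud1 values could not be checked. Got1, the cytosolic aspartate aminotransferase, lies on chromosome 19 (43499752 to 43524605, minus strand). It was at 109, 335, 189 and 191 in control chow, at 290, 214, 146 and 178 in mutant chow, at 274, 251, 287 and 108 in control HFD and at 198, 193, 231.7 and 149 in mutant HFD livers. Each control group held one liver near 110, and the intervals of Got1 were the widest of the 10, at -0.64 to 0.79 for genotype on chow and -0.89 to 0.55 on HFD.

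Gpt, the cytosolic alanine aminotransferase that takes the amino group of alanine arriving from muscle, lies on chromosome 15 (76695716 to 76699686, plus strand). It was at 304, 344, 302 and 347 in control chow livers and at 301, 163, 299 and 312 in mutant chow livers. In control HFD livers it was at 395, 462, 472 and 218, and in mutant HFD livers at 346, 219, 260 and 268. On HFD, 3 controls lay above all mutants and control 4 lay below them all. The genotype difference on HFD was -0.46 (95% interval -0.98 to 0.066, limma adjusted p = 0.590 and an unadjusted p of 0.0826), the largest of the 40 pairwise differences, and that on chow was -0.31 (-0.84 to 0.21, adjusted p = 0.949). The chow value rested on mutant chow mouse 2, the liver with the high acute-phase share, and was -0.090 without it. The part of the acute-phase genes in this value was not tested.

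The HFD values of Gpt followed the title numbers. Livers of the lower series were between 346 and 472 and those of the higher series between 218 and 268, without overlap. How many of all tested genes lay without overlap between these series was not counted. The higher minus the lower series was -0.75 for Gpt (95% interval -1.21 to -0.29, limma adjusted p = 0.0228) in a fit with genotype, diet and series. Gpt was the only 1 of 10 members to pass in this comparison, in which 25.2% of all tested genes passed. Within the lower series, the 1 mutant was at 346 and the 3 controls averaged 443. Within the higher series, the 1 control was at 218 and the 3 mutants averaged 249, the opposite order. With the series in the fit, the genotype difference on HFD was -0.081 (adjusted p = 1.00). With libraries weighted by their spread, which gave control HFD mouse 4 a weight of 0.228, it was -0.78 (adjusted p = 0.0023), in a fit where 30.9% of all tested genes passed. Without control HFD mouse 4 it was -0.71 (unadjusted p = 0.0038, adjusted p = 0.0721). Without both control HFD mouse 4 and mutant HFD mouse 1, it was -0.83 (adjusted p = 0.0128), with 21.4% of all genes passing. Genotype and series are then the same split and cannot be told apart. The other Gpt comparisons with HFD livers moved too. HFD against chow in controls was 0.19, and 0.45 without control HFD mouse 4 (limma, unadjusted p = 0.0467, adjusted p = 0.180). In mutants it was 0.051, and -0.069 without both livers. The interaction was -0.14, and 0.20 with the series in the fit.

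**Figure D3:**
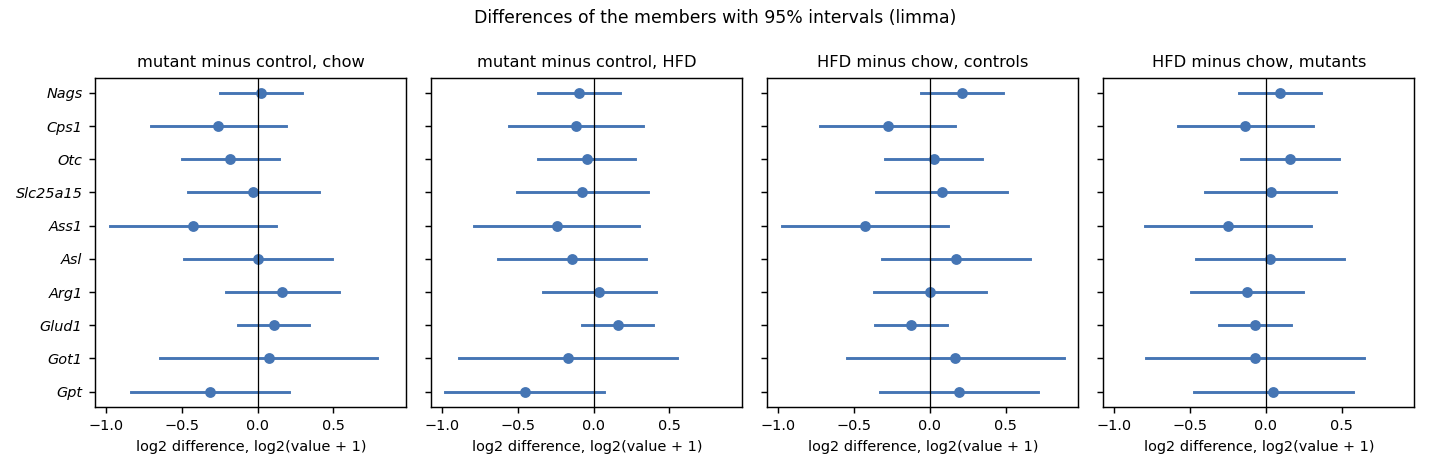
Log2 differences (x axes, on log2(value + 1)) of the 10 genes (rows) in the 4 pairwise comparisons, each with its 95% interval from limma. Every interval includes 0, and the largest difference is -0.46 for Gpt between mutants and controls on HFD.

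No interaction of genotype and diet passed the test. The interaction terms ran from -0.24 for Got1 (95% interval -1.26 to 0.77) to 0.18 for Ass1 (-0.59 to 0.95), and the smallest unadjusted p was 0.512. On HFD, 8 of 10 members had a negative genotype difference with a median of -0.11, beside 47.1% of all tested genes and a median of 0.016. On chow, 5 of 10 were negative, with a median of -0.013 beside 0.020 for all genes. For diet, 3 of 10 were negative in controls and 5 of 10 in mutants. These signs depended on scaling: with every library rescaled to the same total, 8 of 10 were negative for diet in controls, with a median of -0.12, while the median of all genes moved to -0.16. The negative members were then 8 of 10 for genotype on chow and 6 of 10 on HFD, with a median of -0.025, and went from 6 to 1 of 10 for the interaction. With median-of-ratios size factors, 7 of 10 were negative on chow.

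Some pairs of members varied together from mouse to mouse. Of the 45 pairs, whose median r was 0.31, 29 had a positive Pearson correlation over the 16 livers, 9 had a Benjamini-Hochberg adjusted permutation p under 0.05 over the 45 pairs, and 8 of these 9 were positive. The share of such pairs among all tested genes was not counted, so the count is a description of the members only. The permutations ran over all 16 livers and took no account of group or title series. The closest pair was Slc25a15 and Got1, with r = 0.837 (permutation p = 7.0e-05, adjusted p = 0.00315) and Spearman rho = 0.876 (permutation p = 4.0e-05, adjusted p = 0.0018). Leaving out the 2 livers farthest from the median of Slc25a15 gave r = 0.791, and within the 8 chow and the 8 HFD livers r was 0.864 and 0.848. Cps1 and Ass1, enzymes of the first and the third step, had r = 0.732 (permutation p = 0.00126, adjusted p = 0.0283) and rho = 0.679 (p = 0.00481, adjusted p = 0.0318), with 0.677 without the 2 farthest livers. This pair was uneven between diets, at 0.892 on chow and 0.294 on HFD. Ass1 and Gpt had r = 0.689 (permutation p = 0.00327, adjusted p = 0.0294) and rho = 0.718 (p = 0.0023, adjusted p = 0.0318), with 0.725 without the 2 farthest livers, 0.832 on chow and 0.876 on HFD. The higher minus the lower HFD title series was -0.50 for Ass1 (95% interval -1.09 to 0.085) and -0.75 for Gpt. The part of the series in the correlation of this pair was not tested. The 1 negative pair was Glud1 and Gpt, one of the steadiest and one of the most variable members, with r = -0.632 (permutation p = 0.0092, adjusted p = 0.0462) and rho = -0.679 (p = 0.00485, adjusted p = 0.0318). Without the 2 farthest livers r was -0.595, and it was -0.411 on chow and -0.742 on HFD. All values of a liver come from 1 library and share its size factor. With each library rescaled to the same total, Slc25a15 and Got1 had r = 0.799 and Glud1 and Gpt r = -0.442, and with group means removed the latter pair had r = -0.481.

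**Figure D4:**
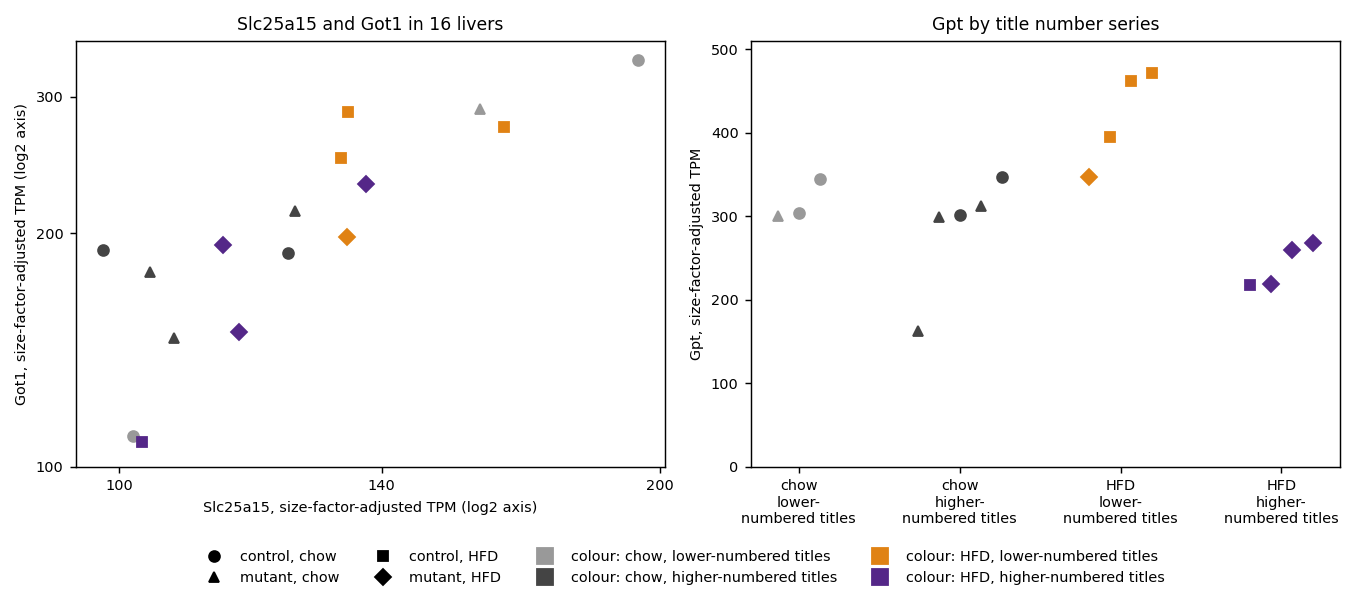
Left, size-factor-adjusted TPM of Slc25a15 (x axis) and Got1 (y axis), both on log2 axes, with 1 point per mouse (r = 0.837 over 16 livers). Right, Gpt in the 4 title number series (x axis), where the HFD lower series lies between 346 and 472 and the HFD higher series between 218 and 268. Shapes give the group and colours the series in both panels.

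The upstream sequences of this closest pair are shown because the 2 genes varied together without belonging to one gene family. RefSeq windows on GRCm38.p6 were matched by symbol for 6 of the 10 members (Otc, Ass1, Nags, Slc25a15, Glud1 and Got1), and the 250 bases before the transcript start are given, on the strand of the gene. Capitals mark CCAAT boxes (CCAAT or ATTGG on either strand) and GC boxes (GGGCGG or CCGCCC).
Got1, chr19:43524606-43524855, minus strand: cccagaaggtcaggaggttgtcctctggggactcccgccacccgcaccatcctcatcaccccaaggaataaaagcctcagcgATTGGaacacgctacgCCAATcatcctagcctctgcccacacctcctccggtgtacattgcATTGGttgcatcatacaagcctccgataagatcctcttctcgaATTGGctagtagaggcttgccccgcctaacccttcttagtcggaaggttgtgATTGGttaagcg
Slc25a15, chr8:22398622-22398871, minus strand: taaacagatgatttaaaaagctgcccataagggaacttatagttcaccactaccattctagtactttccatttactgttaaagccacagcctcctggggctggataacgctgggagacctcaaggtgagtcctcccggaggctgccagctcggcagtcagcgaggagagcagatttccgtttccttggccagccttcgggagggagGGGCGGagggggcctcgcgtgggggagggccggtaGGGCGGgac
The Got1 window holds 5 CCAAT boxes and no GC box. At least 1 CCAAT box occurs in 33.8% of the 32851 mouse windows of this length, and 5 or more in 0.213%. The Slc25a15 window holds 2 GC boxes and no CCAAT box, where 32.7% of windows hold at least 1 GC box and 16.7% at least 2. The RefSeq start behind the Slc25a15 window lies 24 bases upstream of the nearest coding GENCODE start, while the Got1 starts coincide. The bases compared began before that GENCODE start, so they could not match and the missing match shows nothing. A second RefSeq start of Slc25a15 lies 320 bases from the nearest coding GENCODE start, and its compared bases matched no transcript of the gene. Its window at chr8:22398278-22398527 holds 5 GC boxes and 1 E-box (CACGTG, held by 6.02% of windows). The pair shared neither kind of box in these windows, which is a description of letters and not of binding. A further 6 motifs searched on both strands (the TATA box as TATAAA, a cAMP response half-site as TGACG, the E-box as CACGTG, a glucocorticoid half-site as TGTTCT, a C/EBP motif as TTNNGNAAT and an HNF4 motif as CAAAGTCCA) had no match in the 2 windows shown.

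The same comparisons were made for genes around the cycle. Of 17 nitrogen partners (mitochondrial carriers, amino acid transporters, glutamine enzymes and deacylases), 16 were tested and 0 passed in any of the 5 comparisons, with 1 at an unadjusted p of 0.05 in each of genotype on chow, genotype on HFD and diet in controls, where 6.08%, 8.60% and 12.9% of all tested genes reached it. Arg2, the extrahepatic arginase, stayed below 1 in every liver, with a maximum of 0.779, and was not tested. Glul, which makes glutamine from ammonia in the hepatocytes around the central vein, was at 357 ± 105 in control HFD and 554 ± 116 in mutant HFD livers (SD, n = 4), a difference of 0.66 with an unadjusted p of 0.00575 and a limma adjusted p of 0.527. Slc25a22, a mitochondrial glutamate carrier, was at 232.5 ± 37.0 in control chow and 161 ± 39.6 in control HFD livers, without overlap (beside 6.36% of all tested genes), a difference of -0.55 (limma adjusted p = 0.335 and an unadjusted p of 0.0316). Slc7a2, a transporter of cationic amino acids, was at 114 ± 33.6 in control chow and 80.3 ± 20.7 in mutant chow livers, a difference of -0.49 (adjusted p = 0.804 and an unadjusted p of 0.0400). Among the mitochondrial counterparts of the aminotransferases, Got2 had differences between -0.085 and 0.14 in the 4 pairwise comparisons, and Gpt2 between -0.25 and 0.047. Slc25a13, the aspartate and glutamate carrier that feeds Ass1, had means between 117 and 143, and Oat, which links ornithine to glutamate, between 295 and 376.

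Enzymes of amino acid breakdown and regulators known to act on the cycle followed. All 32 catabolic genes and all 13 regulators were tested, and 0 passed in any of the 5 comparisons. At an unadjusted p of 0.05, 3 of 32 catabolic genes reached it for genotype on HFD, 3 of 32 for diet in controls and 2 of 32 for the interaction, beside 8.60%, 12.9% and 4.21% of all tested genes, and 0 of 32 in the other 2 comparisons. Bckdha and Bckdhb encode subunits of the branched-chain ketoacid dehydrogenase. Bckdha was at 153 ± 7.86 in control chow and 215 ± 50.5 in control HFD livers (SD, n = 4), a difference of 0.46 (limma adjusted p = 0.292), and Bckdhb was at 160 ± 15.1 in control HFD and 127 ± 23.3 in mutant HFD livers, a difference of -0.34 (adjusted p = 0.548). Sdsl, which resembles serine dehydratase, was at 7.45 ± 0.620 in control chow and 13.6 ± 5.39 in control HFD livers, a difference of 0.70 (adjusted p = 0.336). Of the catabolic genes, 26 of 32 had a negative genotype difference on HFD, with a median of -0.17, and 24 of 32 on chow, with a median of -0.10, beside 47.1% and 45.4% of all tested genes. These signs were counted on the deposited scaling only, and the part of scaling and of the title series in them was not tested. Among regulators, 2 of 13 reached an unadjusted p of 0.05 between genotypes on HFD, 2 between diets among controls, 3 for the interaction and 0 in the other 2 comparisons, beside the same 8.60%, 12.9% and 4.21% of all tested genes. Gcgr, the glucagon receptor, was at 175 ± 24.6 in control chow and 232.5 ± 34.0 in control HFD livers, a difference of 0.41 (adjusted p = 0.300), and Creb1, a cAMP-responsive factor, differed by -0.33 in the same comparison (adjusted p = 0.324). Cebpb had an interaction of -0.89 (adjusted p = 0.895).

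**Figure D5:**
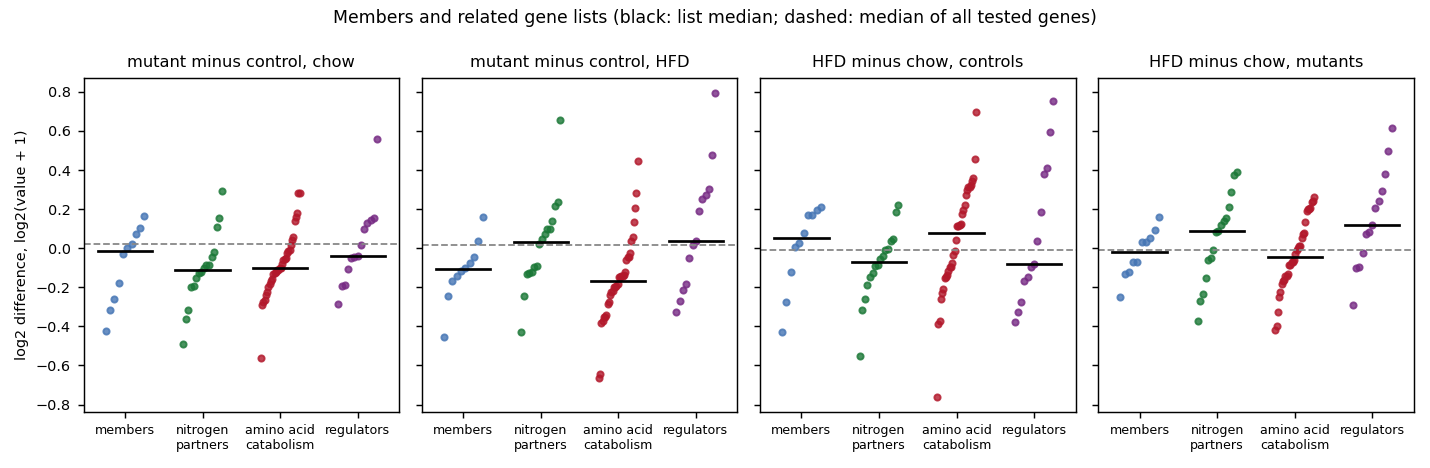
Log2 differences (y axis, on log2(value + 1)) in the 4 pairwise comparisons for the 10 members, 16 nitrogen partners, 32 amino acid catabolism genes and 13 regulators. Each point is a gene, the black bar is the list median, the dashed line is the median of all 12704 tested genes, and no point passed the adjusted threshold.

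Because the cycle is periportal, genes marking the lobule's zones were set beside it. All 8 periportal markers had a negative genotype difference on HFD, with a median of -0.41, and 6 of 8 pericentral markers a positive one, with a median of 0.59, and 0 of 8 in each list passed the adjusted threshold. At an unadjusted p of 0.05, 2 of 8 periportal and 4 of 8 pericentral markers reached it, beside 8.60% of all tested genes. The zone lists share genes with the lists above. Glul, Oat, Rhbg and Gls2 are also nitrogen partners, and Hal and Sds are also catabolic genes. Glul is thus counted both among these pericentral markers and as the nitrogen partner that reached it on HFD. Cyp2f2, a periportal cytochrome, was at 171 ± 74.1 in control HFD and 77.9 ± 71.5 in mutant HFD livers (SD, n = 4), a difference of -1.38 (limma adjusted p = 0.542 and an unadjusted p of 0.0123), and Hsd17b6, at 747 ± 74.4 and 516 ± 111, differed by -0.55 without overlap (adjusted p = 0.577), where 2.69% of all tested genes did not overlap. Hsd17b13 was higher in every control HFD than in every control chow liver, with a difference of 0.52 (adjusted p = 0.267), where 6.36% of all tested genes did not overlap. Cyp1a2, a pericentral cytochrome, was at 557 ± 96.1 in control HFD and 1034 ± 304 in mutant HFD livers, a difference of 0.85 (adjusted p = 0.527), and Tbx3 differed by 0.99 between mutant HFD and mutant chow livers (adjusted p = 0.623). The summed periportal level on HFD was 2495 to 4377 in controls and 2075 to 3370 in mutants, and it too went with the title numbers, at 3370 to 4377 in the lower and 2075 to 2873 in the higher series. The summed pericentral level on HFD overlapped, at 6075 to 8420 in controls (median 6877) and 5915 to 7405 in mutants (median 6439). The sum thus did not follow the positive median of the single differences. Its highest gene, Cyp2e1, was at 5717 ± 959 in control HFD and 4536 ± 925 in mutant HFD livers, a difference of -0.34 (limma adjusted p = 0.680). Cyp2e1 and Oat (-0.12) were the 2 pericentral markers with a negative genotype difference on HFD. The part of zonation in the member values was not tested.

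Markers of other cells were low beside those of hepatocytes. The summed level of 7 Kupffer cell markers was 117 to 585 over all livers, that of 8 stellate cell markers 118 to 245, that of 6 endothelial markers 87.8 to 160 and that of 5 cholangiocyte markers 28.3 to 45.7. The 10 lymphocyte markers summed to 9.74 to 52.7 and the 6 red blood cell markers to 1623 to 6922. Of the adipocyte, pancreas and skeletal muscle markers, 2 of 5, 1 of 6 and 1 of 5 had a row, with sums of at most 10.1, 30.2 and 1.43. Their part in the member values was not tested.

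The genes whose pattern over the 16 livers was most like the mean of the 10 members were Acmsd (r = 0.823), Agxt (0.823), Atg2a (0.804), Anxa6 (0.792), Cbr1 (0.769), Pgk1 (0.757), Gls2 (0.745) and Tmem86b (0.737), by Pearson correlation with the mean of the standardised log2 values. They were the 8 highest of all tested genes by this measure, so their correlations are a description. Acmsd acts in tryptophan breakdown, Agxt is an alanine and glyoxylate aminotransferase and Gls2 is the liver glutaminase, which releases ammonia from glutamine. With group means removed, these correlations were between 0.746 and 0.845. The member mean was highest in control chow mouse 2, at 1.36, and lowest in control chow mouse 1, at -0.80, so that the control chow group held both ends of the range.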

How the data were processed

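Liver RNA of 16 mice was sequenced by the authors after library preparation with a NEBNext Ultra II kit. Per the labels and the methods, reads were assigned to mouse transcripts (mm10) with kallisto in gene mode and tested with sleuth. Tool versions, the annotation release and the strand setting are not given in the sources used here. The deposited values are a signal per gene, taken from their range to be TPM divided by size factors, since column totals differed between 905897 and 1119700. Counts cannot be had from this scale and the depth is unknown, so precision is given by the spread between mice.

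The limma package (3.58.1, R 4.3.3) was applied to log2(value + 1) after dropping genes that reached 1 in fewer than 4 libraries. The 16 libraries entered 1 fit of 4 group means, with a variance trend and Benjamini-Hochberg adjustment over 12704 genes at 0.05, and the log2 scale understates changes of low genes. Groups came from the genotype and diet labels, which number no replicates, so replicate numbers are names. Correlations used 100000 permutations. The code was tested on simulated data. Named genes were all members, up to 3 genes a list by smallest unadjusted p, 6 partners set by name, and the 8 genes most like the member mean. Members and lists were chosen with earlier results of these data known. Alternatives covered scaling, filters, pseudocount, library weights, title number series and leaving out libraries. Similar transcripts were found by blastn in GENCODE M21 (GRCm38), and upstream windows came from RefSeq.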

Additional observations from a re-analysis of the deposited data

Results flagged for a closer look

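In 2 of the 40 sets of 4 livers formed by the 10 genes and 4 groups, 1 liver lay far from the other 3 by Dixon's test at the 95% level, which chance alone gives in about 1 in 20 sets. Gpt in mutant chow mouse 2 was 163, against 299 in the nearest liver of its group, a gap of 0.912 of the group's range. That liver had 12.4% of its summed values in acute-phase genes and the lowest Otc of all. Nags in mutant HFD mouse 1 was 57.3, against 52.4 in the nearest liver, a gap of 0.837 of the range. That liver was the only mutant in the lower HFD number series, and its Nags value lay within the 52.5 to 61.8 of the control HFD livers.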

How the results depend on the processing

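Of 880 recomputed values of the 50 member differences, 798 kept their sign and their side of the threshold, 80 changed sign and 2 newly passed, both for Gpt. The 27 differences that changed sign at least once were at most 0.24 in size. The count of members past the threshold stayed at 0 except for genotype on HFD, where it was 1 (Gpt) with library weights and 1 (Gpt) without control HFD mouse 4 and mutant HFD mouse 1, an alternative chosen after seeing the data. An unadjusted p under 0.05 occurred in 15 of the 880 values. The cause of these changes was not tested. No paired analysis was possible because the labels give no replicate numbers. The unknown depth limits what can be said of the low genes.

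Values that changed sign (log2) were as follows. With median-of-ratios size factors, genotype on chow was -0.035 for Asl and -0.015 for Nags. With libraries rescaled to 1000000, which moved the median of all genes to -0.16 for diet in controls and to 0.13 for the interaction, genotype on chow was -0.080 for Asl, -0.059 for Nags and -0.0088 for Got1, and genotype on HFD was 0.037 for Otc and 0.0093 for Slc25a15. Diet in controls was then -0.15 for Otc, -0.0028 for Asl, -0.17 for Arg1, -0.095 for Slc25a15 and -0.0046 for Got1, and the interaction was 0.022 for Asl, 0.039 for Arg1, 0.041 for Nags, 0.12 for Slc25a15 and 0.023 for Gpt. With library weights, genotype on chow was -0.050 for Nags and -0.060 for Got1, genotype on HFD was 0.018 for Otc, diet in controls was -0.023 for Otc, diet in mutants was 0.056 for Got1 and -0.18 for Gpt, and the interaction was -0.18 for Ass1. With the number series as a term, genotype on chow was 0.075 for Slc25a15, genotype on HFD was 0.0077 for Ass1, 0.076 for Slc25a15 and 0.18 for Got1, and the interaction was 0.0013 for Slc25a15, -0.024 for Glud1, 0.029 for Got1 and 0.20 for Gpt. Without both HFD livers, genotype on HFD was 0.061 and diet in controls -0.055 for Otc, and diet in mutants was -0.069 for Gpt.

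Leaving out each liver in turn gave these ranges where the sign changed. For genotype on chow they were -0.18 to 0.13 for Asl, -0.053 to 0.13 for Nags, -0.15 to 0.18 for Slc25a15 and -0.19 to 0.34 for Got1. For genotype on HFD they were -0.12 to 0.036 for Otc, -0.066 to 0.15 for Arg1 and -0.19 to 0.030 for Slc25a15. For diet in controls they were -0.055 to 0.10 for Otc, -0.012 to 0.31 for Asl, -0.095 to 0.15 for Arg1, -0.036 to 0.29 for Slc25a15 and -0.095 to 0.50 for Got1. For diet in mutants they were -0.099 to 0.16 for Asl, -0.042 to 0.16 for Slc25a15, -0.22 to 0.10 for Got1 and -0.17 to 0.15 for Gpt. For the interaction they were -0.033 to 0.36 for Cps1, -0.050 to 0.31 for Ass1, -0.28 to 0.041 for Asl, -0.26 to 0.081 for Slc25a15, -0.024 to 0.11 for Glud1 and -0.57 to 0.024 for Got1.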
